A study of Danio rerio with 18 samples.

Results

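The Eph receptors and their ligands, the ephrins, were followed in whole zebrafish larvae. Members were all Ensembl gene IDs in the deposited gene tables whose zebrafish symbol, read without regard to case, begins with epha, ephb, efna or efnb and a digit. The rule found 30 of 32520 IDs, namely 8 EphA receptors, 8 EphB receptors, 9 ephrin-A ligands and 5 ephrin-B ligands. The study asked how loss of Akr1a1a, an aldo-keto reductase that detoxifies the reactive aldehyde acrolein (ACR), and exposure to ACR itself change the larval transcriptome. RNA-Seq was made from 6 samples of untreated akr1a1a-/- larvae, 6 samples of akr1a1a+/+ larvae given ACR between 24 and 120 hours post fertilization (hpf), and 6 samples of untreated akr1a1a+/+ larvae, all collected at 120 hpf. The labels of all samples give E3 medium with phenylthiourea, which blocks pigment, and each sample pooled the larvae of a clutch. The akr1a1a-/- line carries 1 CRISPR-Cas9 allele in exon 2 and was studied on a Tg(fli1:EGFP) background, in which a fli1 promoter marks endothelial cells with EGFP; the labels do not say whether the sequenced larvae carried this reporter.

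Eph receptors are a large family of receptor tyrosine kinases, and ephrins are held on the surface of the neighbouring cell. EphA receptors mainly bind ephrin-A ligands, which are tethered by a lipid anchor, and EphB receptors mainly bind ephrin-B ligands, which span the membrane, while EphA4 binds ligands of both classes. Contact sends a forward signal into the receptor's cell and a reverse signal into the ligand's cell, and most often the cells repel each other. In zebrafish and other vertebrates this pushes apart the segments of the hindbrain, maps retinal axons onto the tectum, and keeps arterial cells with ephrin-B2 apart from venous cells with EphB4.

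The libraries had between 19878464 and 20463404 counts each, and 3 counts, taken as the limit of detection, correspond to 0.147 to 0.151 CPM, a count scaled to the size of its library. The akr1a1a transcript had 6 to 15 counts in akr1a1a-/- samples, 57 to 76 in ACR-treated samples and 47 to 69 in untreated akr1a1a+/+ samples, with a log2 fold change of -2.75 between akr1a1a-/- and untreated akr1a1a+/+ larvae (adjusted p = 1.13e-09, edgeR). All akr1a1a-/- libraries were sequenced on lane 3 and all untreated akr1a1a+/+ libraries on lane 2, so that genotype and lane cannot be told apart in that comparison. ACR-treated replicates 1 to 3 were on lane 2 and replicates 4 to 6 on lane 3. Markers of neurons, radial glia, retinal ganglion cells, endothelium, muscle, epidermis, intestine and liver, and photoreceptors were all detected. In bulk RNA, fewer cells of a type and less RNA per cell cannot be told apart.

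All 30 members were expressed above the detection limit in every sample, the lowest count being 37, and all passed the filter on low counts. Symbols were given by a name table in which 6 symbols belong to 12 of the member IDs, so a symbol alone does not always name 1 gene; such genes are given with their Ensembl ID. Levels of different genes were compared in TPM, a measure of abundance that corrects for transcript length. In untreated akr1a1a+/+ larvae the median member had 8.11 TPM, against 7.74 TPM for the median of the 23223 genes tested, and 17 members lay above that gene.

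**Figure D1:**
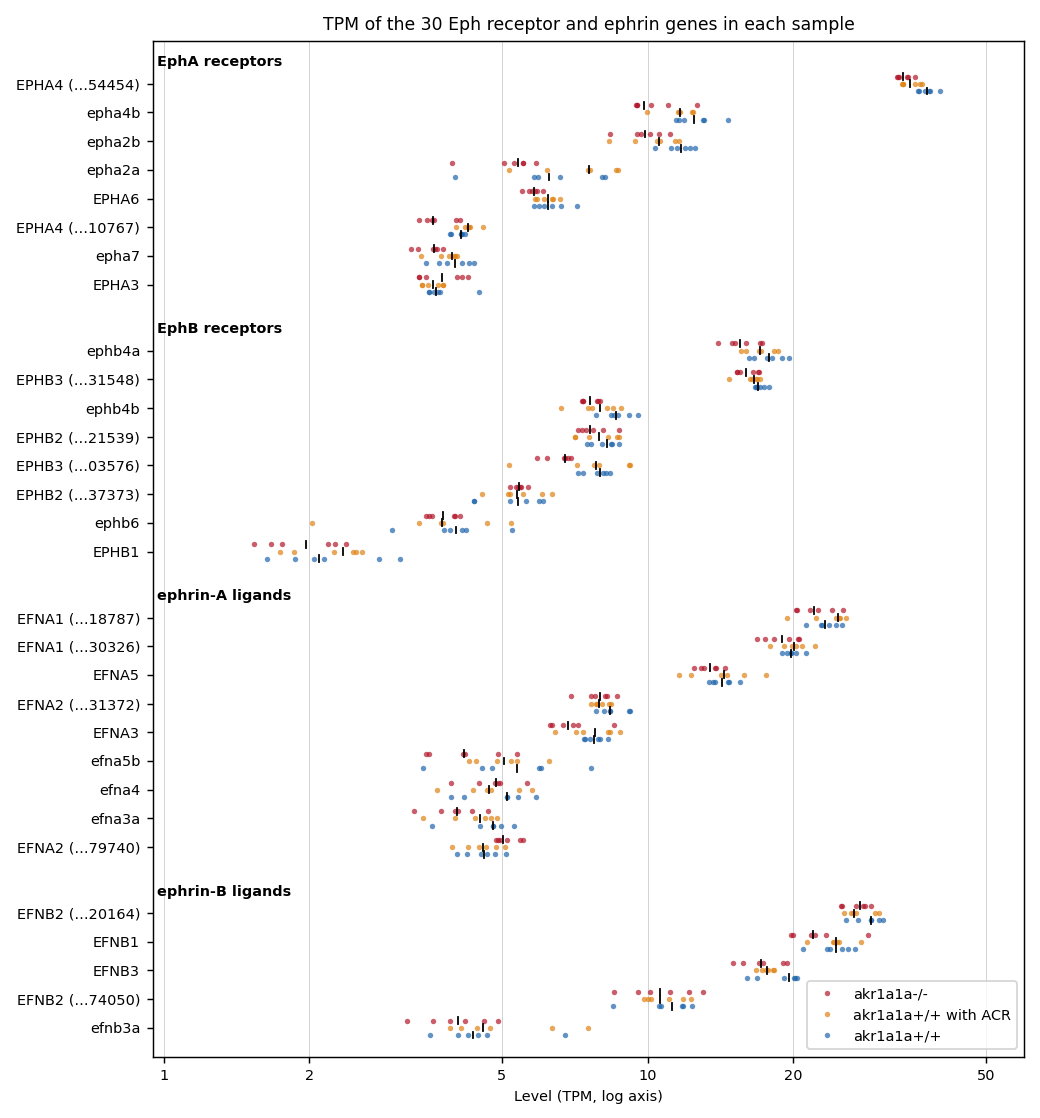
TPM (log axis) of each of the 30 members in each of the 18 samples. Dots are samples, short black bars are group medians, and for each gene akr1a1a-/- samples are on top, ACR-treated akr1a1a+/+ samples in the middle and untreated akr1a1a+/+ samples at the bottom; EPHA4 ENSDARG00000054454 stands at the right edge and EPHB1 at the left, and the dots of the 3 groups overlap for most genes.

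Among the EphA receptors, EPHA4 (ENSDARG00000054454), the segment-boundary receptor of the hindbrain, had the highest level of any member. Its TPM was 32.8, 33.7 and 35.7 (lowest, median and highest of 6) in akr1a1a-/- larvae, 33.4, 34.7 and 36.9 in ACR-treated larvae, and 36.2, 37.8 and 40.2 in untreated akr1a1a+/+ larvae. The EphA4 genes were unequal. In untreated akr1a1a+/+ larvae epha4b followed with a median of 12.5 TPM, and the other ID named EPHA4 (ENSDARG00000010767) had 4.12 TPM. The EPHA2 genes, which encode an epithelial receptor in mammals, lay between, with medians of 11.7 TPM for epha2b and 6.27 TPM for epha2a in the same larvae. EPHA6 had 6.22 TPM, epha7, a receptor of the developing brain in mice, 3.99 TPM and EPHA3, which is graded across the chick retina, 3.65 TPM.

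Of the EphB receptors, ephb4a, the receptor of venous endothelium in zebrafish, was the highest in untreated akr1a1a+/+ larvae, with a median of 17.8 TPM. It was followed by EPHB3 (ENSDARG00000031548) with 16.9 TPM, and then by ephb4b with 8.59 TPM. EphB2 and EphB3 position cells of the mouse intestinal crypt and guide axons. EPHB2 (ENSDARG00000021539) had 8.24 TPM, EPHB3 (ENSDARG00000103576) 7.97 TPM and EPHB2 (ENSDARG00000037373) 5.40 TPM. The lowest levels were those of ephb6, whose mammalian protein lacks kinase activity, with 4.01 TPM, and of EPHB1, which steers retinal axons to the same side of the brain in mice, with 2.09 TPM. EPHB1 was the lowest of all members.

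The ligands had a narrower spread of levels. EFNB2 (ENSDARG00000020164), the arterial ligand, had a median of 29.0 TPM in untreated akr1a1a+/+ larvae, next below EPHA4. It was followed by EFNB1, the gene of craniofrontonasal syndrome in humans, with 24.5 TPM. The ephrin-A1 genes, ligands of EphA2 in human cells, had 23.3 TPM (ENSDARG00000018787) and 19.8 TPM (ENSDARG00000030326). EFNB3, which keeps axons from crossing the spinal midline in mice, had 19.6 TPM and efnb3a 4.36 TPM. EFNA5 and EFNA2 encode ephrins that repel retinal axons in the tectum. EFNA5 had 14.2 TPM, against 5.37 TPM for efna5b. EFNA2 (ENSDARG00000031372) had 8.35 TPM and the other ID named EFNA2 (ENSDARG00000079740) 4.59 TPM. The remaining ligands were EFNB2 (ENSDARG00000074050) with 11.2 TPM, EFNA3 with 7.74 TPM, efna4 with 5.11 TPM and efna3a with 4.79 TPM.

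Most neighbours in this order could not be separated. Of 29 neighbouring pairs, 26 had ranges over the 6 untreated akr1a1a+/+ samples that overlapped. The 3 gaps lay between EPHA4 (ENSDARG00000054454) and EFNB2 (ENSDARG00000020164), between EPHB3 (ENSDARG00000031548) and EFNA5, and between EPHA3 and EPHB1. Genes that share a symbol kept their order almost throughout. The TPM of EPHA4 ENSDARG00000054454 was 7.83 to 9.72 times that of EPHA4 ENSDARG00000010767 over all samples. Within EFNA1 the ratio of ENSDARG00000018787 to ENSDARG00000030326 had medians of 1.19 in akr1a1a-/-, 1.20 in ACR-treated and 1.19 in untreated akr1a1a+/+ larvae, and it exceeded 1 in all but 1 akr1a1a-/- sample. Close copies can share reads, and 21 members had counts that were not whole in at least 1 sample, as happens when a read is divided among transcripts; the split between copies is therefore an estimate.

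Summed over the 16 receptors, the level was 134, 142 and 146 TPM (lowest, median and highest) in akr1a1a-/- larvae, 139, 151 and 158 TPM in ACR-treated larvae and 151, 157 and 166 TPM in untreated akr1a1a+/+ larvae. The 14 ligands summed to 163, 168 and 185 TPM in akr1a1a-/- larvae, 172, 179 and 183 TPM in ACR-treated larvae and 176, 180 and 187 TPM in untreated akr1a1a+/+ larvae. Ligand transcripts thus outnumbered receptor transcripts in every sample, with a receptor to ligand ratio of 0.793 to 0.873 in akr1a1a-/-, 0.809 to 0.876 in ACR-treated and 0.840 to 0.920 in untreated akr1a1a+/+ larvae. The EphA sum did not overlap between akr1a1a-/- larvae (71.8 to 80.5 TPM) and untreated akr1a1a+/+ larvae (82.3 to 92.7 TPM), and neither did the EphB sum (62.1 to 67.6 TPM in akr1a1a-/- and 68.6 to 73.4 TPM in untreated akr1a1a+/+ larvae). TPM values sum to the same total in each sample. On this scale the median of all genes was itself shifted by -0.05 log2 units in akr1a1a-/- larvae. The fold changes and tests between groups below therefore use CPM scaled by TMM factors, which hold most genes level, unless TPM is named. Sums of marker genes are in TPM, so this shift bears on them.

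The first comparison set akr1a1a-/- against untreated akr1a1a+/+ larvae, in which genotype and lane coincide. Few members differed. Of the 30 members, epha4b was lower and 1 of the EFNA2 genes higher, each by under 1.5-fold, and the other 28 did not pass the test. With lane as a term, no member passed. Genes were called at a Benjamini-Hochberg adjusted p under 0.05 in edgeR's quasi-likelihood test, adjusted over all 23223 genes. By this rule 16.2% of all genes were called between akr1a1a-/- and untreated akr1a1a+/+ larvae, 8.19% higher and 7.96% lower, and the members' count of 2 of 30 is read against these shares. At an unadjusted p under 0.05 the count was 6 of 30, against 29.8% of all genes. On log2(TPM + 1) values with limma, 1210 genes were called higher and 2484 lower, against 1903 higher and 1849 lower on the CPM scale.

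The receptor epha4b had 23.5, 24.6 and 30.4 CPM (lowest, median and highest of 6) in akr1a1a-/- larvae and 27.2, 29.7 and 34.0 CPM in untreated akr1a1a+/+ larvae. Of the akr1a1a-/- samples, 5 lay below every untreated akr1a1a+/+ sample, and replicate 3, at 30.4 CPM, lay within their range. The log2 fold change was -0.22 ± 0.07 (SE), or 14.3% lower, with an adjusted p of 0.0353. The call was lost when akr1a1a-/- replicate 1, 4, 5 or 6, or untreated akr1a1a+/+ replicate 2, 5 or 6, was left out (adjusted p 0.0614 to 0.0936), while the direction stayed the same. In ACR-treated larvae epha4b had 23.4, 27.5 and 29.1 CPM, with the median between those of the other groups.

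The ephrin gene EFNA2 (ENSDARG00000079740) was the only member called higher. It had 5.88, 6.2 and 6.70 CPM in akr1a1a-/- larvae, against 4.85, 5.33 and 5.83 CPM in untreated akr1a1a+/+ larvae, so the groups did not overlap in CPM. In TPM they overlapped, with 4.86 to 5.53 in akr1a1a-/- and 4.03 to 5.11 in untreated akr1a1a+/+ larvae, and limma on log2(TPM + 1) gave an adjusted p of 0.124. The log2 fold change was 0.22 ± 0.07 (SE), or 16.8% higher, with an adjusted p of 0.0447. This call was near the threshold: it was lost without any 1 of akr1a1a-/- replicates 2 to 6, untreated akr1a1a+/+ replicates 1 to 5, or ACR-treated replicates 2, 4 and 5, which enter through the shared estimate of spread (adjusted p 0.0508 to 0.0933), and DESeq2 gave 0.0973. The other gene of that symbol, EFNA2 (ENSDARG00000031372), differed by -0.05 ± 0.06 on the log2 scale (SE, adjusted p = 0.642, edgeR). The TPM of ENSDARG00000031372 relative to ENSDARG00000079740 had medians of 1.51 in akr1a1a-/-, 1.74 in ACR-treated and 1.95 in untreated akr1a1a+/+ larvae.

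EPHA4 (ENSDARG00000054454) lay at the edge of the threshold. It had 54.7, 56.6 and 57.2 CPM in akr1a1a-/- larvae and 58.7, 60.3 and 66.1 CPM in untreated akr1a1a+/+ larvae, again without overlap, for a log2 fold change of -0.11 ± 0.04 (SE) and an adjusted p of 0.0502 (edgeR). DESeq2 gave an adjusted p of 0.0291 for the same gene, and edgeR gave 0.0442 without untreated akr1a1a+/+ replicate 1 and 0.0429 without ACR-treated replicate 1. EPHB3 (ENSDARG00000103576) was the third member whose groups did not overlap, with 6.28, 6.79 and 7.05 CPM in akr1a1a-/- larvae and 7.26, 8.0 and 8.12 CPM in untreated akr1a1a+/+ larvae, and with an adjusted p of 0.184 (edgeR), or 0.0474 without ACR-treated replicate 1, its lowest sample. Absence of overlap was found for 3 of 30 members, against 7.45% of all genes tested.

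**Figure D2:**
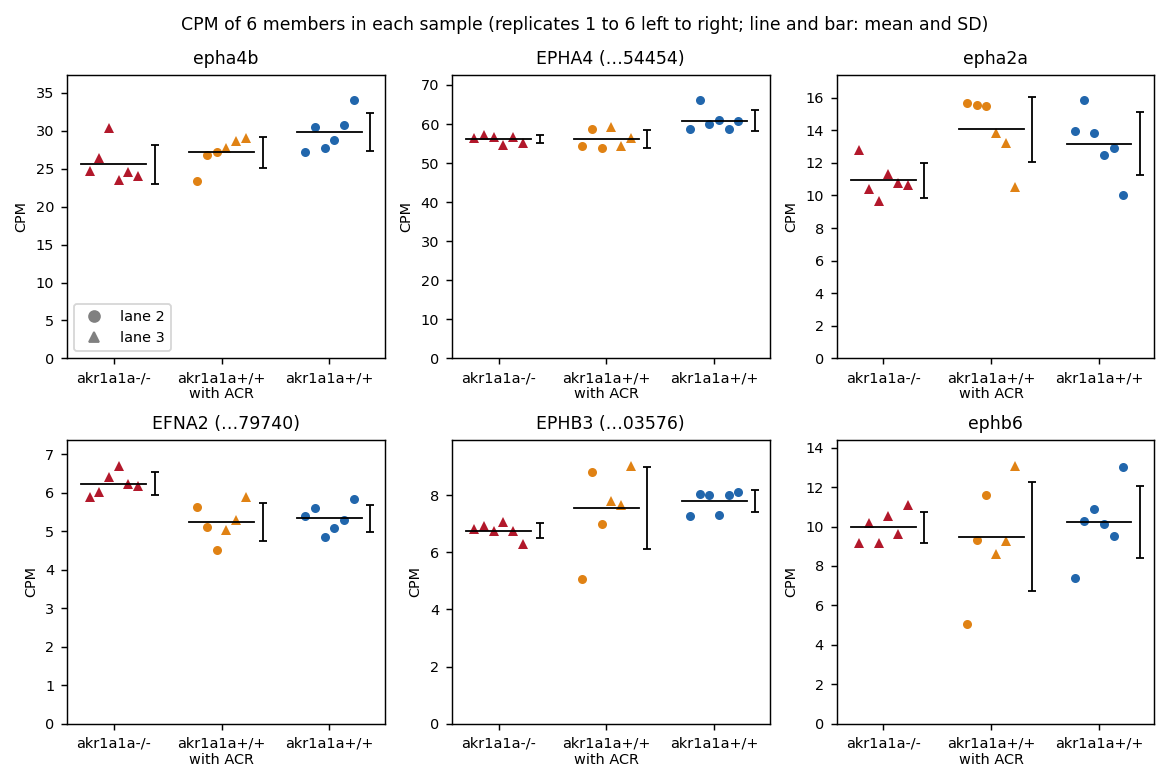
CPM of epha4b, EPHA4 ENSDARG00000054454, epha2a, EFNA2 ENSDARG00000079740, EPHB3 ENSDARG00000103576 and ephb6 in each sample, from left to right akr1a1a-/-, ACR-treated akr1a1a+/+ and untreated akr1a1a+/+ larvae, with replicates 1 to 6 in order; circles are lane 2, triangles lane 3, and lines and bars are the mean and SD of 6 samples. EFNA2 is higher in every akr1a1a-/- sample, while ephb6 is lowest in replicate 1 and highest in replicate 6 in both akr1a1a+/+ groups.

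Values below 0 were the more common, though few passed the test. Of the 30 log2 fold changes between akr1a1a-/- and untreated akr1a1a+/+ larvae, 26 were below 0, against 50.2% of all genes, with a median of -0.07 for the members and -0.00074 for all genes. With lane as a term 22 were below 0, and on the TPM scale with limma 27 were, against 62.3% of all genes. The median was -0.10 over the EphA receptors, -0.08 over the EphB receptors, -0.02 over the ephrin-A ligands and -0.06 over the ephrin-B ligands. The members that were not below 0 were EPHA3 (0.06), EPHB2 ENSDARG00000037373 (0.11), EFNA5 (0.02) and EFNA2 ENSDARG00000079740 (0.22), and only the last passed the test. The lowest values belonged to efna5b, at -0.29 ± 0.16 (SE, adjusted p = 0.256), and epha2a, at -0.27 ± 0.11 (SE, adjusted p = 0.0903). Without untreated akr1a1a+/+ replicate 6, epha2a was called (log2 fold change -0.34, adjusted p = 0.0270), as it was without ACR-treated replicate 6 (adjusted p = 0.0491). For 29 of 30 members the 95% interval of the fold change lay within 1.5-fold in either direction, and for all 30 within 2-fold.

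Because lane and genotype coincide, the model was also fitted with lane as a term, which is estimated from the ACR-treated samples alone. No member was then called (6.45% of all genes were), 5 had an unadjusted p under 0.05, against 25.2% of all genes, and the median log2 fold change of the members was -0.10. The estimate for epha4b was -0.37 with an adjusted p of 0.0641, that for EFNA2 ENSDARG00000079740 was 0.14 with an adjusted p of 0.555, and that for epha2a turned to 0.04. Among the ACR-treated samples the lanes hold different clutches, so the lane term cannot separate lane from clutch.

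**Figure D3:**
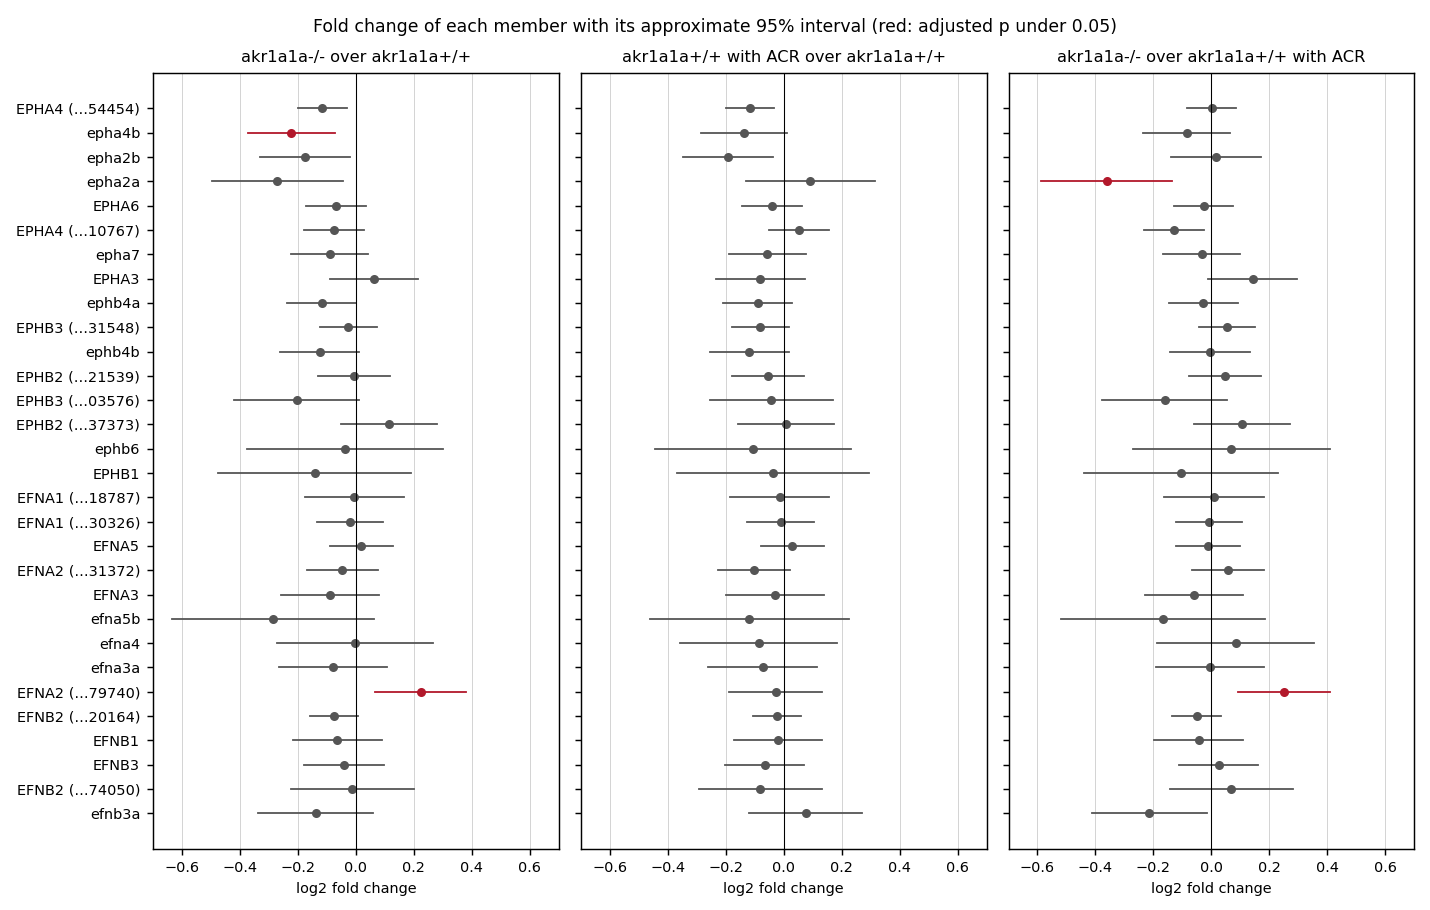
Log2 fold change of each member with its approximate 95% interval in the 3 comparisons, from left to right akr1a1a-/- over untreated akr1a1a+/+, ACR-treated over untreated akr1a1a+/+, and akr1a1a-/- over ACR-treated akr1a1a+/+. Members called at an adjusted p under 0.05 are red; these are epha4b and EFNA2 ENSDARG00000079740 on the left, none in the middle, and epha2a and EFNA2 ENSDARG00000079740 on the right.

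The second comparison set ACR-treated against untreated akr1a1a+/+ larvae. No member passed the test, which took the samples as unpaired, and 0.0258% of all genes did. DESeq2 and limma also called 0 members, as did the fits with the replicate number as a block. In these 0.138% of all genes were called over all 18 samples and 0.599% over only the groups compared, where 3 members, against 13.6% of all genes, had an unadjusted p under 0.05. At an unadjusted p under 0.05, 2 of 30 members were lower, against 5.42% of all genes. These were EPHA4 ENSDARG00000054454, with 53.9, 55.4 and 59.3 CPM in ACR-treated and 58.7, 60.3 and 66.1 CPM in untreated larvae, and epha2b, with 17.2, 21.6 and 23.5 CPM in ACR-treated and 22.2, 24.1 and 26.2 CPM in untreated larvae. Both pairs of ranges overlapped, and both adjusted p values were 0.909 (edgeR). The log2 fold change was -0.12 ± 0.04 (SE) for EPHA4 and -0.19 ± 0.07 (SE) for epha2b. In none of the 30 members did the groups lie apart, against 0.306% of all genes.

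Here too most values were slightly below 0. This held for 25 of 30 members, against 49.6% of all genes, with a median of -0.06 for the members, and for 23 of 30 on the TPM scale, against 43.0% of all genes. Without untreated replicate 6, 20 of 30 were below 0, against 48.1% of all genes, and the median was -0.03. With the treated samples of lane 3 alone, 18 of 30 were below 0, against 49.6% of all genes. Untreated replicate 6 was the highest sample of its group for 12 of 30 members, against 21.4% of all genes. Of the same-numbered pairs, ACR-treated larvae were lower in 5 or 6 of 6 for 11 members and higher in 5 or 6 of 6 for 1 member, against 15.7% and 16.5% of all genes. The member that was higher was epha2a, with 10.5, 14.7 and 15.7 CPM in ACR-treated and 10.0, 13.4 and 15.8 CPM in untreated larvae. Its log2 fold change was 0.09 ± 0.10 (SE, adjusted p = 0.947). All 30 intervals lay within 1.5-fold in either direction. Epidermal markers were also mostly below 0 in this comparison: 7 of 8 were, with a median of -0.20, and they summed to 8734 to 13407 TPM in ACR-treated and 11819 to 14621 TPM in untreated larvae. None of the 8 was called by edgeR without the block (3 at an unadjusted p under 0.05) or by limma, 1 was lower by DESeq2, and 3 were lower with the replicate block. Of 15 neuronal and 15 photoreceptor markers, 12 of each were below 0, with medians of -0.05 and -0.06. Radial glial markers were below 0 in 7 of 12 (median -0.02). Markers of retinal ganglion cells were in 5 of 9 (-0.03) and of muscle in 5 of 9 (-0.0089). Endothelial markers were below 0 in 5 of 13 (median 0.02), and those of intestine and liver in 3 of 7 (0.04). The part of these cell types in the members' values was not tested.

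Both comparisons use the same untreated akr1a1a+/+ samples, so a sample that is high or low there moves them together. Side by side, for the members called in any comparison or at an unadjusted p under 0.05 in the ACR comparison, the log2 fold change of EPHA4 ENSDARG00000054454 was -0.11 in akr1a1a-/- and -0.12 in ACR-treated larvae. For epha2b the values were -0.18 and -0.19, and for epha4b -0.22 and -0.14, in the same order. Signs were opposite for epha2a, with -0.27 ± 0.11 (SE) in akr1a1a-/- and 0.09 ± 0.10 in ACR-treated larvae. They were also opposite for EFNA2 ENSDARG00000079740, with 0.22 ± 0.07 and -0.03 ± 0.07 in that order. Both ACR-treated values lay within 1 SE of 0, so their signs are not settled. Of the members called in no comparison, efna5b had -0.29 and -0.12, and efnb3a -0.14 and 0.08.

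The difference between the 2 was tested directly by setting akr1a1a-/- against ACR-treated akr1a1a+/+ larvae. The called members were epha2a, which was lower, and EFNA2 ENSDARG00000079740, which was higher, 2 of 30 against 13.8% of all genes, of which 6.46% were higher and 7.29% lower. The receptor epha2a had 9.67, 10.7 and 12.8 CPM in akr1a1a-/- larvae and 10.5, 14.7 and 15.7 CPM in ACR-treated larvae. The ranges overlapped through ACR-treated replicate 6, which at 10.5 CPM was the lowest of its group, as untreated replicate 6 was of its own. In log2 terms the change was -0.36 ± 0.11 (SE), or 22.2% lower, with an adjusted p of 0.0265. The call was lost without akr1a1a-/- replicate 2 or 3, or ACR-treated replicate 1, 2 or 3 (adjusted p 0.0513 to 0.0615).

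EFNA2 ENSDARG00000079740 had 4.50, 5.20 and 5.88 CPM in ACR-treated larvae, and the lowest akr1a1a-/- sample lay above the highest of these by less than a hundredth of a CPM. In log2 terms the change was 0.25 ± 0.07 (SE), or 19.0% higher, with an adjusted p of 0.0278. It was lost without akr1a1a-/- replicate 3 or 4, or ACR-treated replicate 2, 3 or 4 (adjusted p 0.0523 to 0.0690). This was the 1 member of 30 whose groups did not overlap in CPM, against 6.13% of all genes, and in TPM its groups overlapped. The median log2 fold change of the members was -0.01, and 17 of 30 were below 0. Calls were gained for EPHA4 ENSDARG00000010767 without akr1a1a-/- replicate 1 (log2 fold change -0.15, adjusted p = 0.0432) and for EPHB3 ENSDARG00000103576 without ACR-treated replicate 1 (log2 fold change -0.25, adjusted p = 0.0260).

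Both values were also read by lane. The ACR-treated replicates of lane 3 can be compared with the akr1a1a-/- larvae on the same lane. Against these 3 samples no member was called (8.53% of all genes were), and 3 members had an unadjusted p under 0.05, against 23.2% of all genes. The value for epha2a was -0.20 with an adjusted p of 0.328, and that for EFNA2 ENSDARG00000079740 was 0.21 with an adjusted p of 0.174. Among ACR-treated samples, epha2a was 15.5 to 15.7 CPM in the 3 of lane 2 and 10.5 to 13.9 CPM in the 3 of lane 3 (log2 difference -0.31, adjusted p = 0.337). No member was called between these lanes by edgeR, 5 had an unadjusted p under 0.05, and the lanes also hold different clutches. In untreated akr1a1a+/+ larvae, all on lane 2, epha2a was 13.9 to 15.8 CPM in replicates 1 to 3 and 10.0 to 12.9 CPM in replicates 4 to 6. From the treated samples alone, lane and clutch cannot be told apart. Their same-numbered untreated samples, read as pairs, were all on lane 2. In replicates 1 to 3 epha2a had 15.7, 15.5 and 15.5 CPM in treated and 13.97, 15.8 and 13.9 CPM in untreated larvae. In replicates 4 to 6 it had 13.9, 13.2 and 10.5 CPM in treated and 12.5, 12.9 and 10.0 CPM in untreated larvae. Treated larvae were higher in 5 of 6 pairs, replicate 2 being the exception. The parts of lane and clutch were not tested.

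**Figure D4:**
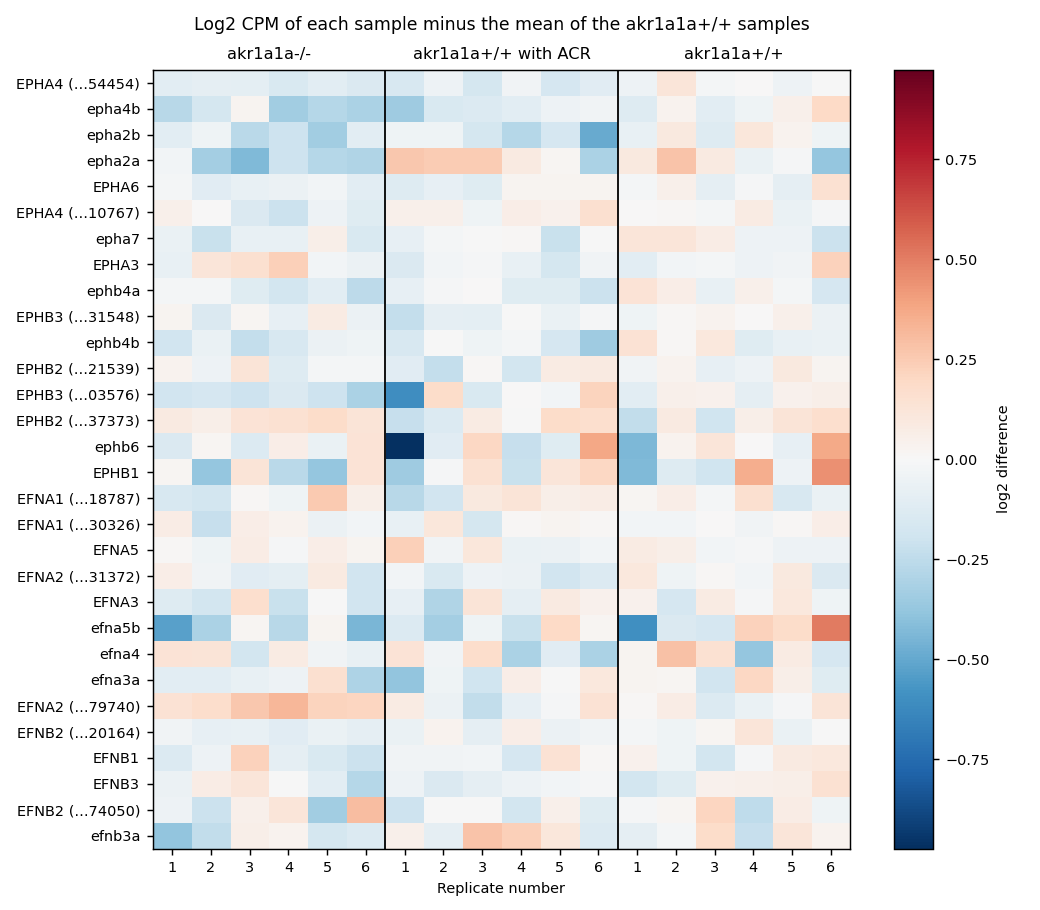
Log2 CPM of each member in each of the 18 samples minus the mean of the 6 untreated akr1a1a+/+ samples, with akr1a1a-/- samples on the left, ACR-treated akr1a1a+/+ samples in the middle and untreated akr1a1a+/+ samples on the right, replicates 1 to 6 in order. Blue is lower and red higher; the rows of EFNA2 ENSDARG00000079740 and epha4b show the called changes, and replicate 1 of both akr1a1a+/+ groups is blue for ephb6 and EPHB1.

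Some members varied widely between replicates. The coefficient of variation of the CPM within a group of 6 ran from 1.70%, for EFNB2 ENSDARG00000020164 in akr1a1a-/- larvae, to 28.9%, for ephb6 in ACR-treated larvae. In ACR-treated larvae ephb6 had 5.08 CPM in replicate 1 and 13.1 CPM in replicate 6, and in untreated akr1a1a+/+ larvae it had 7.41 CPM in replicate 1 and 13.0 CPM in replicate 6. These were the lowest and the highest samples of both groups, and the same held for EPHB1, epha4b and EPHB3 ENSDARG00000103576. In all, 11 of 30 members were highest in the same replicate number in both groups, against 34.2% of all genes, and 10 were lowest in the same number, against 33.7%. These shares are near those of all genes. Between akr1a1a-/- and untreated akr1a1a+/+ larvae the counts were 5 and 5, against 18.5% and 18.6% of all genes.

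The median over the 30 members of each sample's log2 CPM minus the mean of untreated akr1a1a+/+ larvae gives 1 value per sample. It was -0.10, -0.07 and 0.02 (lowest, median and highest) in akr1a1a-/- samples, -0.10, -0.04 and -0.0085 in ACR-treated samples and -0.02, -0.0082 and 0.03 in untreated akr1a1a+/+ samples. In akr1a1a-/- larvae 5 of 6 samples lay below all untreated samples, and replicate 3 did not. ACR-treated replicates 1 to 4 also lay below all untreated samples, and ACR-treated replicates 5 and 6 did not. These values describe the samples and carry no test.

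The genes through which Eph receptors and ephrins act were read from lists of signalling partners. Of 45 genes that carry the forward signal, 7 were called lower and 0 higher in akr1a1a-/- than in untreated akr1a1a+/+ larvae, with a median log2 fold change of -0.04, against 7.96% of all genes called lower. DESeq2's Wald test called 2 higher and 8 lower of the forward genes. Of 17 genes of the reverse signal 3 were lower and 0 higher, with a median of -0.04. With both directions pooled, 16.2% of all genes were called, near the shares of both lists, 7 of 45 and 3 of 17. All of these edgeR calls were lower, whereas 7.96% of all genes were called lower and 8.19% higher. Of 11 proteases and related genes that cleave Ephs and ephrins none was called, with a median of -0.02. None of these 11 had an unadjusted p under 0.05 in edgeR or DESeq2, limma on log2(TPM + 1) called 0, and 1 was lower in the fit with the replicate number as a block. That fit called 1 higher and 8 lower of the forward genes and 3 lower of the reverse genes. It joins akr1a1a-/- samples by number to untreated samples that were not read as their pairs. In ACR-treated larvae 0 genes of any of these lists were called by edgeR, DESeq2 or limma, and 2, 0 and 1 had an unadjusted p under 0.05 in edgeR, in the order forward, reverse and cleavage.

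The forward genes called lower in akr1a1a-/- larvae come from a list whose genes were chosen because they relay or restrain Eph signals. CBLB, a ubiquitin ligase that removes active receptor tyrosine kinases, had 30.7, 33.0 and 33.9 CPM in akr1a1a-/- larvae and 38.8, 39.7 and 41.4 CPM in untreated akr1a1a+/+ larvae. The groups did not overlap, and the log2 fold change was -0.28 ± 0.04 (SE, adjusted p = 3.03e-05, edgeR). Its relative CBL was lower as well. The lipid phosphatase gene inppl1b, whose mammalian product SHIP2 binds EphA2, had 5.5, 6.16 and 8.41 CPM in akr1a1a-/- and 9.07, 9.74 and 11.2 CPM in untreated akr1a1a+/+ larvae, with a log2 fold change of -0.60 ± 0.09 (SE, adjusted p = 0.000178). The tyrosine kinase gene ABL1 had 21.5, 25.9 and 27.8 CPM in akr1a1a-/- and 27.9, 31.3 and 35.8 CPM in untreated akr1a1a+/+ larvae (log2 fold change -0.34 ± 0.07, SE). ITSN1, an exchange factor that acts on Cdc42 with EphB2 in mammalian neurons, had 64.9, 66.5 and 68.0 CPM in akr1a1a-/- and 71.9, 77.1 and 86.8 CPM in untreated akr1a1a+/+ larvae (log2 fold change -0.23 ± 0.05, SE). Neither ABL1 nor ITSN1 overlapped between the groups. The genes with values in these lists were picked by smallest adjusted p, which favours absence of overlap, found for 7.45% of all genes tested. Genotype and lane coincide here too, and no fit with lane as a term is given for these genes. The other called genes of this list were anks1aa, an adaptor of EphA receptors in mammals, and ROCK2, a kinase below RhoA.

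On the ephrin side, rgs3a, whose mouse counterpart binds the tail of ephrin-B and silences G proteins, had 29.0, 34.5 and 39.4 CPM in akr1a1a-/- and 40.6, 45.7 and 53.1 CPM in untreated akr1a1a+/+ larvae. The log2 fold change was -0.43 ± 0.08 (SE, adjusted p = 0.00117, edgeR), and the groups did not overlap. PTPN13, a phosphatase that acts on ephrin-B in mammals, and GRIP1, a scaffold that binds its tail, were lower as well.

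**Figure D5:**
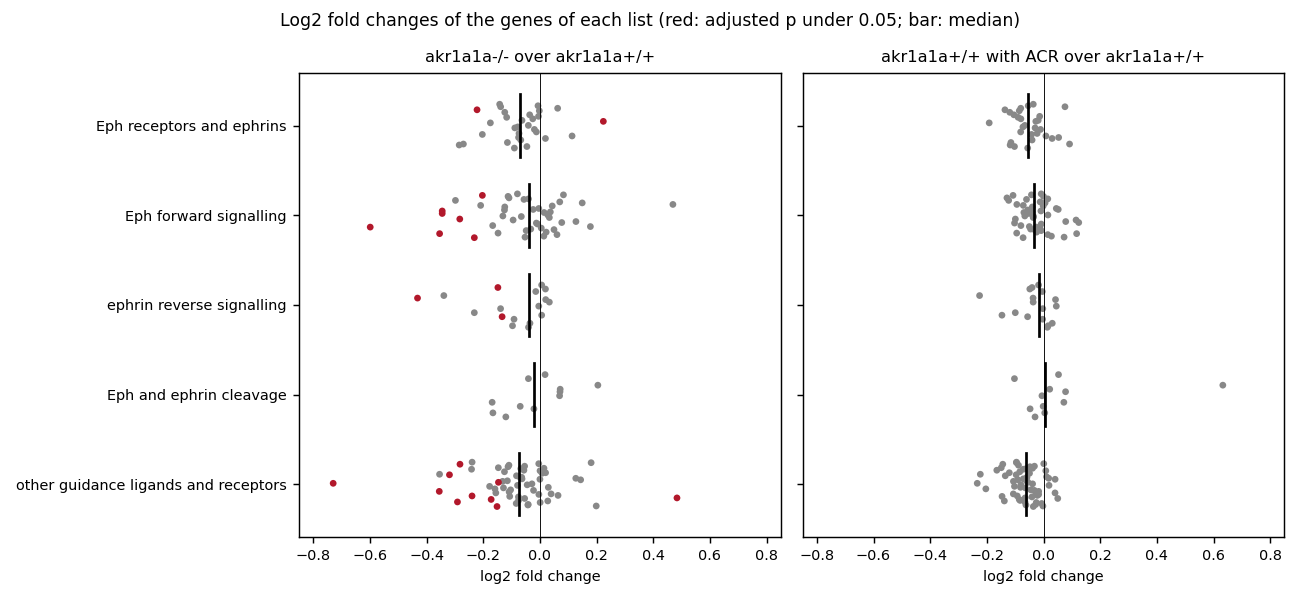
Log2 fold changes of the 30 members and of the genes of 4 related lists, for akr1a1a-/- over untreated akr1a1a+/+ larvae (left) and ACR-treated over untreated akr1a1a+/+ larvae (right). Each dot is a gene, red where the adjusted p is under 0.05, and bars are medians; red dots lie mostly left of 0 in the left panel, and the right panel has none.

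Other families of guidance ligands and receptors, the semaphorins, plexins, neuropilins, netrins, slits and robos, were also mostly below 0. Of 59 genes 9 were called lower and 1, plxnd1, higher in akr1a1a-/- larvae, 45 had a log2 fold change below 0, and the median was -0.08. With both directions pooled, the 10 called of 59 are near the 16.2% of all genes. By direction, 9 of 59 were lower, against 7.96% of all genes, and 1 of 59 higher, against 8.19%. SEMA3B, a secreted semaphorin, had 34.2, 40.3 and 42.7 CPM in akr1a1a-/- and 47.2, 50.2 and 51.0 CPM in untreated akr1a1a+/+ larvae (log2 fold change -0.32 ± 0.05, SE). PLXNA3, a semaphorin receptor, had 42.8, 45.6 and 46.9 CPM in akr1a1a-/- and 49.8, 51.8 and 57.8 CPM in untreated akr1a1a+/+ larvae (log2 fold change -0.24 ± 0.05, SE). The membrane-anchored sema7a had 8.14, 9.84 and 10.8 CPM in akr1a1a-/- and 11.5, 12.4 and 13.4 CPM in untreated akr1a1a+/+ larvae (log2 fold change -0.36 ± 0.07, SE). None of the 3 overlapped between the groups, but they too were picked by smallest adjusted p. In ACR-treated larvae 0 of the 59 were called by edgeR, DESeq2 or limma, and 5 had an unadjusted p under 0.05 in edgeR. There 51 of the 59 had a log2 fold change below 0, against 49.6% of all genes, and the median was -0.06.

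Markers of cells that carry Ephs and ephrins were called in both directions in akr1a1a-/- larvae. The counts of each list are read against all genes, of which 8.19% were called higher and 7.96% lower. Of 15 neuronal genes 3 were called higher and 0 lower, and of 12 radial glial genes 3 were higher and 0 lower. By limma on log2(TPM + 1), 2 neuronal genes were higher and 0 lower, and 2 radial glial genes were higher and 1 lower. The summed levels of both lists overlapped, but these are in TPM, the scale on which the median of all genes was lower in akr1a1a-/- larvae. The neuronal genes summed to 1345 to 1472 TPM in akr1a1a-/-, 1329 to 1518 TPM in ACR-treated and 1339 to 1536 TPM in untreated akr1a1a+/+ larvae, and the radial glial genes to 1342 to 1492, 1356 to 1473 and 1404 to 1478 TPM in the same order. The endothelial genes summed to 119 to 149 TPM in akr1a1a-/-, 168 to 193 TPM in ACR-treated and 158 to 197 TPM in untreated akr1a1a+/+ larvae. Of these 13 genes 2 were called lower and 1 higher, 6 had a log2 fold change below 0, and the median was 0.0098, near 0. FLI1, the gene whose promoter drives the reporter, changed by -0.79 on the log2 scale (adjusted p = 1.38e-06, edgeR). It had 60.2 to 87.7 CPM in akr1a1a-/- and 118 to 145 CPM in untreated akr1a1a+/+ larvae. The part of FLI1 in the summed endothelial level was not tested. The other called endothelial genes were clec14a, at -0.31 (adjusted p = 0.00457, edgeR), and ERG, at 0.45 (adjusted p = 0.0166, edgeR). Of the other marker lists, 2 of 9 muscle genes and 2 of 7 genes of intestine and liver were higher and 0 lower, and of 15 photoreceptor genes 2 were higher and 1 lower. Of 9 genes of retinal ganglion cells and 8 of epidermis none was called by edgeR without the block or by DESeq2 (1 of each list at an unadjusted p under 0.05), while limma on TPM called 1 retinal ganglion cell gene lower and edgeR with the replicate block called 3 epidermal genes higher. The vessel genes among the members did not pass the test in the same comparison, with -0.12 ± 0.06 (SE) for ephb4a, -0.12 ± 0.06 for ephb4b and -0.07 ± 0.04 for EFNB2 ENSDARG00000020164. The part of cell composition in the members' values was not tested.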

How the data were processed

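Samples were grouped by the labels, and all 18 were used. Samples of a group are clutches. The authors deposited, per gene, estimated counts without normalization, which need not be whole, and TPM values scaled within each sample. The submitters' processing notes name Trim Galore 0.6.4, kallisto 0.4.6 and the build GRCz11. The members and lists were chosen with earlier results of these data known. Symbols were found for 29201 of 32520 IDs. No sequences or coordinates are reported here.

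Counts were rounded to whole numbers and tested with R 4.3.3 and edgeR 4.0.16 (filterByExpr, TMM, glmQLFit and glmQLFTest) in 1 model with a mean per group and 15 residual degrees of freedom, with Benjamini-Hochberg adjustment over 23223 genes and a threshold of 0.05. Approximate standard errors were had by dividing the log2 fold change by the root of F, and 95% intervals from these. Total counts of 19878464 to 20463404 set the precision, and the floor of 3 counts covers counting error only. All 45 pairs of replicates differed by more than sampling noise (reduced chi-square 4.62 to 22.2). The fit was tested on simulated data.

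Every member is named; members called in any comparison have full values, and at most 8 genes of the pathway lists, those with the smallest adjusted p, have values. Replicate numbers were checked for pairing. Deviations of same-numbered ACR-treated and untreated akr1a1a+/+ samples from their group means correlated at 0.249 to 0.603 over genes in all 6 pairs, so these were read as pairs. The main test does not use the pairing, and the values for ACR-treated larvae come from it unless the block is named. The fits with the replicate number as a block use it. For akr1a1a-/- and untreated samples the mean was 0.08, and these were not read as pairs. The block still joins them by number, so its results for akr1a1a-/- larvae rest on that numbering. Alternatives were DESeq2 1.42.0 (size factors or Wald test), limma 3.58.1 on log2(TPM + 1) and log2(TPM + 0.1), other filters, only the groups compared, the replicate block, lane as a term, the treated samples of 1 lane, removal of the trend with gene length, and each library left out in turn.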

Additional observations from a re-analysis of the deposited data

Results flagged for a closer look

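Each member was checked in each group of 6 samples for a sample set far apart from the others, which gave 3 of 90 groups, where chance flags about 1 in 20. EFNB1 was high in akr1a1a-/- replicate 3, at 17.9 CPM against 14.7 CPM in the next sample. EPHA3 was high in untreated akr1a1a+/+ replicate 6, at 9.02 CPM against 7.6 CPM in the next sample. EPHA4 ENSDARG00000054454 was high in untreated akr1a1a+/+ replicate 2, at 66.1 CPM against 60.9 CPM in the next sample. The akr1a1a-/- replicate 3 was also the sample of its group with the highest epha4b value, 30.4 CPM.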

How the results depend on the processing

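Between akr1a1a-/- and untreated akr1a1a+/+ larvae the 2 called members became 1 without a filter, 4 with the replicate block (3 lower, now with epha2a at an adjusted p of 0.0333 and EPHA4 ENSDARG00000054454 at 0.0427), 0 with the block in only the groups compared, 0 with lane as a term and 0 to 4 without 1 library. The block joins akr1a1a-/- samples to same-numbered untreated samples, which were not read as their pairs. With at least 10 counts in every sample, DESeq2's Wald test or limma the count stayed at 2. There EPHA4 ENSDARG00000054454 took the place of EFNA2 ENSDARG00000079740, as EPHB3 ENSDARG00000103576 did with only the groups compared. Of 28 alternatives, EFNA2 ENSDARG00000079740 passed in 7 and epha4b in 19. The median of the members was -0.10 with lane as a term, -0.11 on log2(TPM + 1) and -0.12 on log2(TPM + 0.1), where the median of all genes was -0.049 and -0.057. With lane as a term all genes called numbered 1498 rather than 3752.

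Between ACR-treated and untreated larvae 0 members were called under every alternative run, while all genes called ranged from 1 to 137. The median was -0.073 to -0.028 without 1 library and -0.017 with the treated samples of lane 3 alone. Signs turned for epha2a (-0.074, lane 3 alone) and for EFNA2 ENSDARG00000079740 (-0.067 to 0.013 without 1 library, above 0 without untreated replicate 6 or treated replicate 3, and 0.015 with lane 3 alone). For epha2a in akr1a1a-/- larvae lane as a term gave 0.043.

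Between akr1a1a-/- and ACR-treated larvae the 2 called members became 1 with only the groups compared, with or without the replicate block, 1 with DESeq2's Wald test, 1 with limma at either pseudocount (EPHA4 ENSDARG00000010767, neither of the 2), 0 with lane as a term or lane 3 alone and 0 to 3 without 1 library. Lane as a term and lane 3 alone gave the same estimates here, with 1980 genes called in each, and count as 1 check. The median was -0.077 and -0.081 with limma on log2(TPM + 1) and log2(TPM + 0.1), where the median of all genes was -0.063 and -0.072. The causes were not tested. Of the members' calls the block over all samples changed only those named. The lowest count of a member, 37, was that of efna4, closely followed by efna5b, and counting error weighs most on such members.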
